A study of Mus musculus with 15 samples.

Results

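Gene expression was compared between vehicle-treated endometrial organoids of control mice and of mice that lacked *Smad2* and *Smad3* in the uterine epithelium (*Smad2/3* cKO). Every gene with a mean normalized count of at least 10 over the 7 samples was included, which left 13149 of the 16729 genes in the file. Control organoids (control + vehicle, n = 3) came from mice with floxed alleles only (Smad2flox/flox; Smad3flox/flox), and *Smad2/3* cKO organoids (n = 4) from mice with the same alleles and a copy of Ltfcre/+. Both groups received DMSO, and all mice had been given estradiol at weaning, per the methods of the study, to switch on the Cre. The Cre was driven by *Ltf*, the lactoferrin gene, which is active in uterine epithelial cells, and the cells were isolated, embedded in Matrigel and grown into organoids. The labels name endometrium and epithelium and give no age at collection. Organoids of both genotypes with A83-01, an inhibitor of the receptor kinases that phosphorylate SMAD2 and SMAD3, completed the series of 15 samples (n = 4 for each genotype).

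Ligands of the TGFβ and activin families bind pairs of receptor kinases at the cell surface, which phosphorylate SMAD2 and SMAD3. The phosphorylated SMADs join SMAD4, enter the nucleus and change the transcription of genes for matrix proteins, growth inhibitors and their own feedback regulators. BMP ligands use a parallel branch of receptors and SMADs, whose best known targets are the ID genes. In the uterine epithelium these pathways act beside estrogen and progesterone, which set the cycle of growth and secretion of the lining and its glands.

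A value below is a normalized count, which is the number of reads assigned to a gene in a sample after division by a size factor for that sample. Values are given in the order of the replicate numbers, and where both groups stand side by side those of the control samples come before "against" and those of the *Smad2/3* cKO samples after it. Fold changes are on the log2 scale of the normalized count plus 1, given with their standard error, and are positive where *Smad2/3* cKO organoids were higher. Adjusted p-values are from limma with Benjamini-Hochberg adjustment over all 13149 genes, and a gene is called higher or lower at an adjusted p under 0.01 with a change of over 1.4-fold in its direction. Values of low genes rest on few reads, and the added count of 1 shrinks their fold changes. Where the omission of a single sample ended a call, each such sample stands in parentheses beside the gene, with the largest adjusted p found without one of them.

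The 7 samples held 20241771 to 22779453 normalized counts each, and mitochondrial genes took 0.49% to 1.6% of them. On the first principal component, with 55.1% of the variance, the genotypes were apart. All 10 epithelial markers examined were present and summed to 265716 to 339253 per control sample and 140001 to 252732 per *Smad2/3* cKO sample (exact two-sided permutation p = 0.0571). Some markers of leukocytes set *Smad2/3* cKO replicate 2 apart. In that sample the macrophage genes *Lyz2*, *Adgre1* and *Tyrobp* read 3372, 351 and 128, whereas in the other 6 samples *Lyz2* was at most 86.9, *Adgre1* at most 7.76 and *Tyrobp* was listed at 0. *Cd68* read 1916, 1180 and 2474 against 1726, 3258, 5184 and 4083, and *Cd79a* 0, 3.59 and 0.895 against 1.88, 9.74, 17.8 and 21.5. Neither was highest in replicate 2. Without *Smad2/3* cKO replicate 2, 346 genes were higher and 306 lower. Of the 12 stroma markers 8 were in the file, and their sum was 31.8 to 209 in control and 7.43 to 24.7 in *Smad2/3* cKO samples (exact two-sided permutation p = 0.0286, the smallest that 3 against 4 samples allow). The 4 smooth muscle markers in the file, of 6, summed to 56.2 to 192 and 7.20 to 33.7 (p = 0.0286 in the same exact test). In control samples most of this sum was *Acta2* (176, 101 and 53.6). The other 3 averaged below 10 and overlapped between the groups. Of the 8 stroma markers 7 averaged below 10, so their sum rests on low values. *Dcn*, *Lum* and *Postn* had no counts in any *Smad2/3* cKO sample or in control replicate 3. *Pdgfrb* (4.75, 9.84 and 4.35 against 5.67, 0, 0 and 6.12), *Col1a1* and *Col3a1* overlapped between the groups, while *Pdgfra* and *Col1a2* did not. Endothelial markers overlapped between the groups (19.8 to 39.4 and 22.6 to 39.9), as did the sums of the 2 mesothelium markers in the file, nearly all of them *Msln* (10634 to 31301 and 2367 to 12308). In bulk organoids, fewer cells of a type and less RNA per cell cannot be told apart.

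The targeted genes were read over their whole length, which does not show the loss of the floxed exons. *Smad2* (ENSMUSG00000024563) read 1335, 1132 and 1045 in control samples and 924, 863, 892 and 821 in *Smad2/3* cKO samples. All 4 *Smad2/3* cKO values lay below the lowest control value, and the difference missed the threshold (log2 fold change −0.41 ± 0.14, adjusted p = 0.0656). *Smad3* (ENSMUSG00000032402) read 1532, 1741 and 1599 in control and 1169.6, 1640.1, 1516 and 1977 in *Smad2/3* cKO organoids. The groups overlapped (log2 fold change −0.07 ± 0.18, adjusted p = 0.827), so these values do not check the genotype.

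Large differences between the genotypes were found in both directions. The ligand gene *Tgfb2*, the secreted peroxidase gene *Gpx3* and the steroid enzyme gene *Hsd11b1* were among the rises, and the fibronectin gene *Fn1* and N-cadherin gene *Cdh2* among the falls. In all, 536 genes were higher (4.08% of those tested) and 434 lower (3.30%). Of these, 214 rose and 199 fell at least 4-fold on the fitted scale, which is 2 or more in log2 units. The median log2 fold change over all genes tested was 0.0024. The 970 called genes were 7.38% of the genes tested, and in all of them the 2 groups were fully apart, which held for 30.8% of the genes tested. Rescaling every sample to the same total gave 440 higher and 538 lower genes, so that 45.0% rather than 55.3% of the calls were rises, while the median of all genes shifted to −0.0895. The number of calls depended on single samples. It fell to 206 higher and 74 lower without control replicate 1, to 211 and 77 without control replicate 2, to 423 and 240 without control replicate 3, to 313 and 211 without *Smad2/3* cKO replicate 1, and to 251 and 192 without *Smad2/3* cKO replicate 4. Of 153 genes named here with a call, 59 kept it in each of the 7 fits that left out 1 sample.

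**Figure D1:**
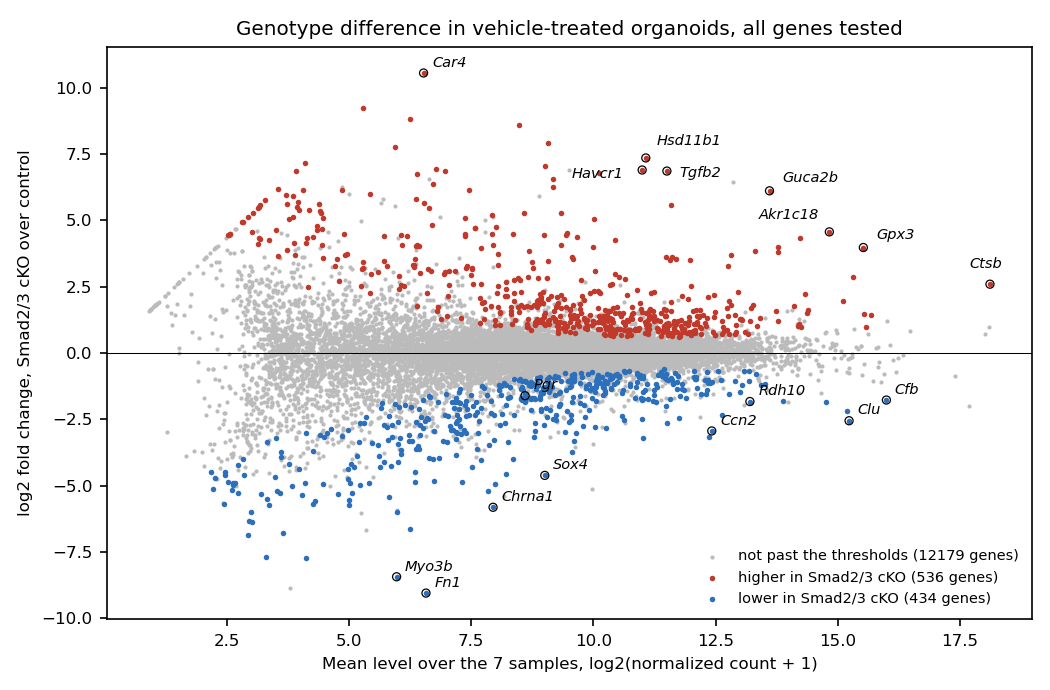
Each point is 1 of the 13149 genes tested. The horizontal axis is the mean of log2(normalized count + 1) over the 7 samples and the vertical axis the log2 fold change of Smad2/3 cKO over control organoids. Red points mark the 536 genes that were higher and blue points the 434 that were lower; Ctsb and Gpx3 are labelled at the right among the genes that rose, and Cfb and Clu among those that fell.

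Among called genes whose higher group averaged 100 or more, the 10 with the largest rises were *Car4*, *Prss29*, *Slc46a2*, *Nptx1*, *Cuzd1*, *Akr1b7*, *Hsd11b1*, *Gbp2b*, *Ptpn5* and *Ugt2b34*. *Car4*, a membrane-bound carbonic anhydrase, read 0, 0 and 1.78 in control and 2508, 2030.1, 881 and 4468 in *Smad2/3* cKO samples. *Slc46a2*, a solute carrier, read 0, 3.56 and 1.78 against 802, 997, 795 and 1851. *Ptpn5*, a tyrosine phosphatase, read 20.5, 16.2 and 86.6 against 2160.4, 3279, 5312 and 8072. These genes were at 86.6 or less in control organoids and at 795 or more in every *Smad2/3* cKO sample. *Gbp2b*, a guanylate-binding protein gene, was listed at 0 in all 3 control samples and read 176, 128, 143 and 133 with the deletion. *Ugt2b34*, which encodes a glucuronosyltransferase, read 4.86, 2.62 and 15.4 against 367.3, 633, 897 and 2606, a log2 fold change of 6.93 ± 0.70, adjusted p = 0.000507.

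The 10 largest falls were those of *Fn1*, *Myo3b*, *Tmprss11d*, *Kcng1*, *Slc6a2*, *Gper1*, *Acsbg1*, *Col8a1*, *Cdh2* and *Dpysl3*. *Myo3b*, a class III myosin, read 1268, 1959 and 2251 in control and 5.52, 0, 20.5 and 3.87 in *Smad2/3* cKO organoids. *Acsbg1*, an acyl-CoA synthetase, read 792, 903 and 1628 against 34.9, 11.5, 5.43 and 3.47. *Gper1*, a G protein-coupled receptor for estrogen, read 170.1, 220.1 and 161 in control samples and was listed at 0 in 3 *Smad2/3* cKO samples and at 6.61 in replicate 3. These genes were chosen among called genes without overlap, so every control sample lay above every *Smad2/3* cKO sample in each. *Dpysl3*, a cytoskeletal regulator, read 648, 589 and 804 against 22.2, 0, 24.8 and 20.6. Of the 20 genes, single samples ended the calls of *Gper1* and *Cdh2* (control replicates 1 and 2, adjusted p 0.0118 and 0.0107), *Col8a1* (control replicates 2 and 3, adjusted p 0.0184) and *Dpysl3* (control replicates 1, 2 and 3 and *Smad2/3* cKO replicates 1 and 4, adjusted p 0.0272), and the other calls held in all 7 fits.

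The promoters of the first 3 rises and the first 3 falls for which RefSeq entries were at hand are shown as the 250 bases before the transcription start, read 5′ to 3′ on the strand of the gene in GRCm38.p6, while the counts were made on GRCm39. Capitals mark 4 motifs searched on both strands, the SMAD-binding element CAGAC, its paired form GTCTAGAC, the GC-rich SMAD motif GGCGCC and the AP-1 motif TGANTCA. The promoters lie at chr11:84957504-84957753 (plus strand), chr17:25318404-25318653 (plus strand), chr4:59915057-59915306 (minus strand), chr2:70038876-70039125 (plus strand), chr5:86373388-86373637 (minus strand) and chr5:139422929-139423178 (plus strand).
Car4: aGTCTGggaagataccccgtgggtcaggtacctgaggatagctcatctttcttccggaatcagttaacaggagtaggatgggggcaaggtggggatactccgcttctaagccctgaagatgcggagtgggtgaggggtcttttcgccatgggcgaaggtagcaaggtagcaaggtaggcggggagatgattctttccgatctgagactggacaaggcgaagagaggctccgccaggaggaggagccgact
Prss29: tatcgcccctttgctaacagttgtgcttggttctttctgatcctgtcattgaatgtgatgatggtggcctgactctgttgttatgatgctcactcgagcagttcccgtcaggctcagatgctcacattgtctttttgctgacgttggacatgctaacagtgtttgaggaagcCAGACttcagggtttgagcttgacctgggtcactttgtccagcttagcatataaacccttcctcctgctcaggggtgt
Slc46a2: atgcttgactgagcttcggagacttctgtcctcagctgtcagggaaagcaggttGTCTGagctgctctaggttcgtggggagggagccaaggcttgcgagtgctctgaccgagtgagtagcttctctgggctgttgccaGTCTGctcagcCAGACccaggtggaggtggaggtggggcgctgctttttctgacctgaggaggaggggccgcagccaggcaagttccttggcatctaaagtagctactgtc
Myo3b: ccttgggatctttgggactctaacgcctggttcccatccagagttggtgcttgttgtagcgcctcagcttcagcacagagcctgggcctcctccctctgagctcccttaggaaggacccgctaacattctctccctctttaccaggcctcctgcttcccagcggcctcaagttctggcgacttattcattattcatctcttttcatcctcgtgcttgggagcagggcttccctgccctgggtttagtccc
Tmprss11d: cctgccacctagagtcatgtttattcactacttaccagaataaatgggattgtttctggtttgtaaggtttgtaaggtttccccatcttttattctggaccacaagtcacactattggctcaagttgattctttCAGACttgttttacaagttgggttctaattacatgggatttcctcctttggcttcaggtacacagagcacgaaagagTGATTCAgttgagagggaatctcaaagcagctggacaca
Gper1: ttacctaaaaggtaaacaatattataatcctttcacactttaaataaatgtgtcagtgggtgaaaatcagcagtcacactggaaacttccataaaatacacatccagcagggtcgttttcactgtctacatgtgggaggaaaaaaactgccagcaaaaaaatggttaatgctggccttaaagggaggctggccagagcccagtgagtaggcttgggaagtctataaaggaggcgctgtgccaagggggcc

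CAGAC occurred 3 times in the *Slc46a2* promoter, once each in those of *Car4*, *Prss29* and *Tmprss11d*, and not in those of *Myo3b* and *Gper1*. It was in 41.9% of the 406 promoters of higher genes, in 38.0% of the 324 of lower genes, and in 40.7% of the 10006 promoters of all genes tested, against 42.1% of the 27025 in the table. The AP-1 motif, which was in the *Tmprss11d* promoter, was in 4.19% of the promoters of higher genes and 7.72% of those of lower genes, and in 4.52% of those of all genes tested. GGCGCC was in 14.3%, 14.5% and 16.5%, and GTCTAGAC in 0 of the promoters of higher and lower genes and in 0.23% of those tested. These shares are descriptions of short windows with no test.

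Among the ligands of the TGFβ and activin families *Tgfb2* stood out. *Tgfb2*, which encodes TGFβ2, read 129, 229 and 235 in the control samples and 26497, 21296, 12858 and 33790.4 in the *Smad2/3* cKO samples. Every *Smad2/3* cKO value was far above every control value, and the log2 fold change was 6.86 ± 0.33, adjusted p = 2.34e-05. *Tgfb3* read 1241, 1123 and 1178 against 4051, 3666, 2050.0 and 4357, a rise of 1.52 ± 0.24, adjusted p = 0.00388. *Tgfb1* was not called (log2 fold change −0.84 ± 0.23, adjusted p = 0.0362), although its 4 *Smad2/3* cKO values of 247 to 454 lay below the control values of 544 to 579.7. *Inhba*, the activin βA subunit, read 70.3, 234 and 259.7 in control and 19.5, 0, 8.11 and 8.89 in *Smad2/3* cKO samples and also missed the threshold (−4.64 ± 0.99, adjusted p = 0.0129). *Inhbb*, the βB subunit, overlapped between the groups (−0.63 ± 0.38, adjusted p = 0.278). *Fst*, whose product follistatin binds and blocks activin, fell from 380.2, 1183 and 247 to 14.5, 23, 48.6 and 11, a log2 fold change of −4.47 ± 0.63, adjusted p = 0.00239. Of 13 ligand and carrier genes tested, 2 were higher and 1 lower (15.4% and 7.69%, against 4.08% and 3.30% of all genes), with a median log2 fold change of −0.63.

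Of 10 receptor genes only *Tgfbr2*, the type II TGFβ receptor, was called (10% lower, against 3.30% of all genes). It read 9069.9, 9471 and 6813 against 4264, 3527, 4753 and 2875 (−1.14 ± 0.20, adjusted p = 0.00528). Among 19 genes for SMADs and intracellular regulators 3 fell (15.8%, against 3.30% of all genes) and none rose, with a median of −0.34. *Pmepa1*, a target that in turn restrains SMAD signaling, read 1327, 903 and 821 against 32, 178, 64.7 and 16.3 (−4.29 ± 0.68, adjusted p = 0.00375). *Tgif1*, a SMAD corepressor, read 4003, 4224 and 3773 against 1747, 1847, 1953 and 1519 (−1.18 ± 0.13, adjusted p = 0.000725), and *Smurf1*, a ubiquitin ligase for SMADs and receptors, fell by 0.88 on the log2 scale (adjusted p = 0.00156). The inhibitory SMAD gene *Smad7*, looked up after the values were seen, read 191, 194 and 270.3 against 13.8, 55.5, 90.4 and 16.5 and missed the threshold (log2 fold change −2.67 ± 0.63, adjusted p = 0.0196).

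**Figure D2:**
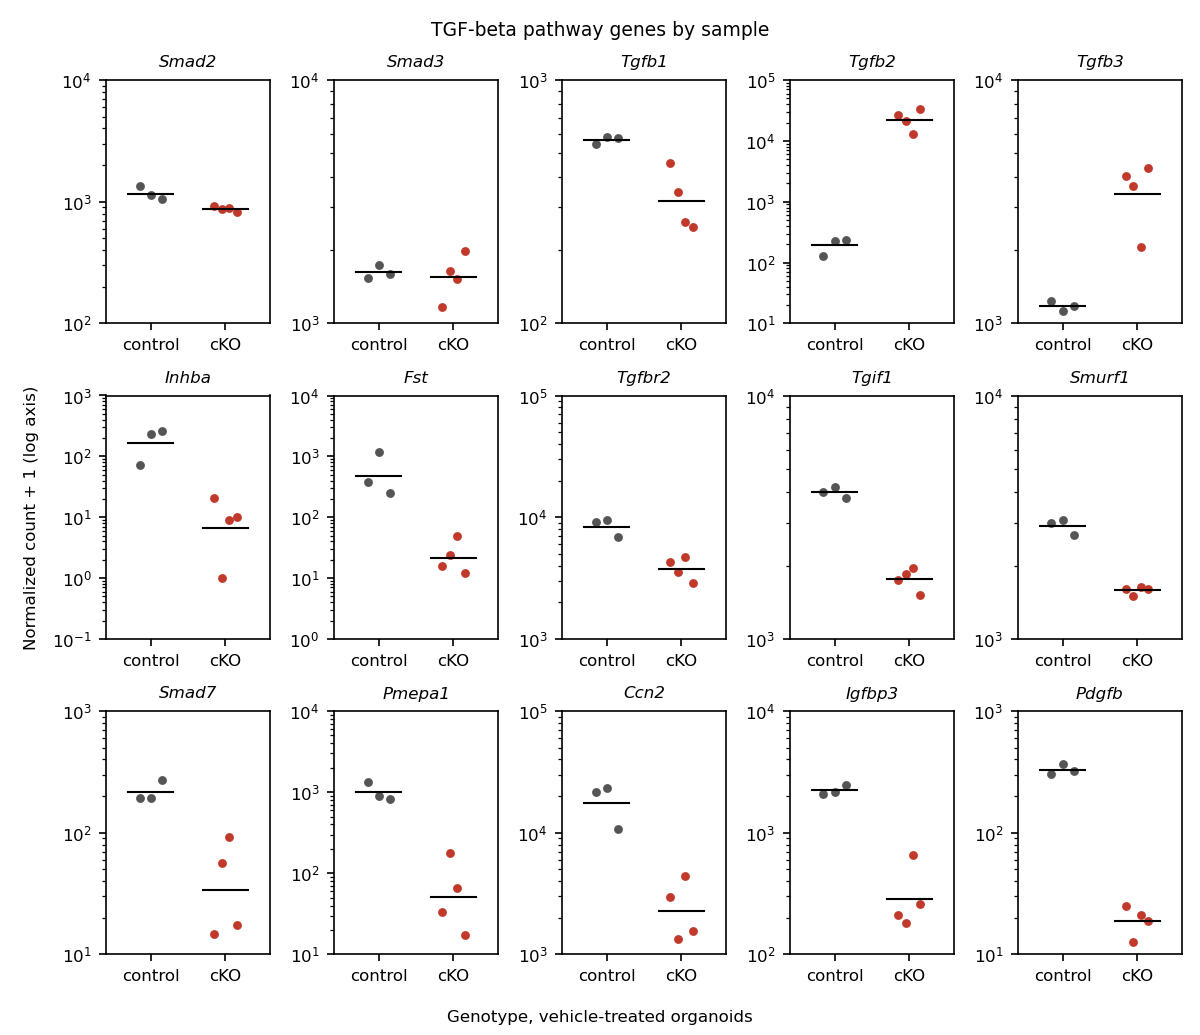
Points are the normalized counts plus 1 of single samples on a log axis, 3 control (grey) and 4 Smad2/3 cKO (red) samples per gene, and the bar is their geometric mean. Tgfb2 and Tgfb3 lie higher in all Smad2/3 cKO samples, the regulators and response genes lie lower, and Smad3 overlaps between the groups.

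Response genes of TGFβ were called as falls only. Of 21 tested, 7 fell (33.3%, against 3.30% of all genes) and none rose (4.08% of all genes did), with a median log2 fold change of −1.37. They were *Fn1*, *Pmepa1*, *Pdgfb*, *Lmcd1*, *Igfbp3*, *Ccn2* and *Thbs1*. *Pdgfb*, a platelet-derived growth factor chain, read 303, 364 and 318 in control and 23.9, 11.7, 20.2 and 17.8 in *Smad2/3* cKO samples (−4.13 ± 0.35, adjusted p = 0.000252). *Ccn2*, a matricellular growth factor, read 21655, 23298 and 10750.4 against 2959, 1332, 4408 and 1571 (−2.94 ± 0.43, adjusted p = 0.00272). *Igfbp3*, an insulin-like growth factor binding protein, read 2069, 2142 and 2487 against 209.6, 179.7, 650.0 and 259 (−2.97 ± 0.39, adjusted p = 0.00162). As in every called gene, the groups were apart in all 3. *Tgfbi* had its higher values in *Smad2/3* cKO samples (20.5 to 66.5, against 0.944 to 8.7; adjusted p = 0.0136). The number of response genes that fell was 2, 2 and 7 without control replicates 1, 2 and 3 in turn and 5, 6, 8 and 6 without *Smad2/3* cKO replicates 1, 2, 3 and 4. *Tgfb2*, *Tgif1*, *Fn1* and *Pdgfb* kept their calls in all 7 of these fits. Calls of the pathway that single samples ended were those of *Tgfb3* and *Lmcd1* (control replicates 1, 2 and 3 and *Smad2/3* cKO replicates 1, 2 and 4, adjusted p 0.0201 and 0.0447), *Fst*, *Igfbp3*, *Ccn2* and *Thbs1* (control replicates 1 and 2, adjusted p 0.0124, 0.0104, 0.0169 and 0.0158), *Tgfbr2* (control replicates 1 and 2 and *Smad2/3* cKO replicates 1, 2 and 4, adjusted p 0.0276), *Pmepa1* (control replicates 1 and 2 and *Smad2/3* cKO replicate 1, adjusted p 0.022) and *Smurf1* (control replicate 1, adjusted p 0.0102).

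BMP genes were called as rises only. Of 14 ligands, antagonists and targets 5 rose (35.7%, against 4.08% of all genes) and none fell (3.30% of all genes did), with a median of 0.48. The rises were those of *Id4*, *Bmp3*, *Id3*, *Hey1* and *Bmp8a*. Of the 14, 7 lay wholly above and 3 wholly below the control range (14.8% and 16.0% of all genes tested were so). *Id4* read 12.7, 18.2 and 4.55 in control and 858, 618, 395.6 and 305 in *Smad2/3* cKO organoids (5.47 ± 0.51, adjusted p = 0.000363), and *Id3* read 118, 71.5 and 161 against 659.8, 775, 1187 and 521 (2.75 ± 0.34, adjusted p = 0.00137). Both encode inhibitors of basic helix-loop-helix factors. *Bmp3*, a ligand that opposes other BMPs, read 1.12, 13 and 24.1 against 113, 165, 182 and 403 (4.42 ± 0.81, adjusted p = 0.00671). The number of rises was 2, 2 and 4 without control replicates 1, 2 and 3 in turn and 2, 2, 3 and 2 without *Smad2/3* cKO replicates 1, 2, 3 and 4. *Id4* and *Id3* were called in all 7 fits without 1 sample, while single samples ended the calls of *Bmp3* (control replicates 1 and 2 and *Smad2/3* cKO replicates 1, 2, 3 and 4, adjusted p 0.0217) and *Hey1* (control replicates 1, 2 and 3 and *Smad2/3* cKO replicates 1, 2, 3 and 4, adjusted p 0.0257), and *Bmp8a* was not called where the number was 2.

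Matrix genes were also called as falls only. Of 30 genes for fibronectin, collagens, laminins and other basement membrane proteins, 7 were lower (23.3%, against 3.30% of all genes) and none higher (4.08% of all genes were), and the median log2 fold change was −1.60. *Fn1*, which encodes fibronectin, read 1884, 3828 and 5624 in the control samples and 1.77, 0.633, 17.9 and 19.3 in the *Smad2/3* cKO samples (−9.06 ± 0.91, adjusted p = 0.000495). *Lama3*, a chain of laminins on which epithelial cells anchor, read 2748, 3846 and 4873 against 253, 388, 1017 and 765 (−2.82 ± 0.44, adjusted p = 0.00368). *Lamb1* fell by 1.58 on the log2 scale (adjusted p = 0.0043). *Tnc*, tenascin C, read 104, 229 and 104 against 3.86, 0, 3.41 and 4.98, *Col8a1* read 27.8, 90 and 381 against 0, 0, 0 and 1.19, and *Sparc* read 55.7, 71.5 and 19.5 against 0, 1.24, 0.742 and 0. As in every called gene, the groups were apart in all 7. The summed stroma markers and the smooth muscle sum, in control samples mostly *Acta2*, moved in the same direction as these genes. In control replicate 3, where the stroma sum was lowest at 31.8, *Fn1* and *Col8a1* had their highest control values, *Tnc* read 104 and *Sparc* 19.5. The part of stromal RNA in these differences was not tested. The number of matrix genes that fell was 2, 1 and 3 without control replicates 1, 2 and 3 in turn and 5, 6, 9 and 4 without *Smad2/3* cKO replicates 1, 2, 3 and 4.

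Among receptors for matrix both directions occurred. Of 23 integrin and focal adhesion genes 4 were lower (17.4%, against 3.30% of all genes) and 2 higher (8.7%, against 4.08%). *Itga5*, the fibronectin receptor subunit, read 1306, 1601 and 1733 in control and 249.5, 352, 386 and 163 in *Smad2/3* cKO samples (−2.49 ± 0.29, adjusted p = 0.00103). *Itga2*, a collagen receptor subunit, read 1173, 1728 and 2330.0 against 278, 354, 529 and 346 (−2.19 ± 0.28, adjusted p = 0.0014). *Itgb5* and *Actn1* were lower too (−1.12 ± 0.16, adjusted p = 0.00243 for *Itgb5* and −1.11 ± 0.21, adjusted p = 0.00778 for *Actn1*). The laminin receptor subunit *Itga6* was higher in *Smad2/3* cKO organoids (9198 to 15528, against 4178 to 6814), as was *Itga1* (941 to 1637, against 476 to 524). Their log2 fold changes were 1.23 ± 0.24 and 1.21 ± 0.20 (adjusted p = 0.00825 and 0.00412). Of 10 regulators and markers of epithelial to mesenchymal transition 2 fell (20%, against 3.30%). *Cdh2*, N-cadherin, read 141, 116 and 51.3 against 0.983, 0, 0 and 0, and *Twist1* read 51.6, 37.8 and 16 against 0.956, 0, 0 and 1.21. Both were close to the floor in every *Smad2/3* cKO sample. Without control replicate 1 *Twist1* averaged under 10 and was not tested. *Acta2*, the smooth muscle actin gene, read 176, 101 and 53.6 against 4.74, 21, 9.44 and 12 (−3.12 ± 0.60, adjusted p = 0.00841). Among matrix, adhesion and mesenchymal genes, single samples ended the calls of *Lama3* and *Itga1* (control replicates 1, 2 and 3, adjusted p 0.0191 and 0.0207), *Lamb1* (control replicates 1, 2 and 3 and *Smad2/3* cKO replicates 1 and 4, adjusted p 0.0194), *Tnc*, *Itgb5* and *Cdh2* (control replicates 1 and 2, adjusted p 0.0175, 0.0137 and 0.0107), *Col8a1* (control replicates 2 and 3, adjusted p 0.0184), *Sparc* (control replicates 1 and 2 and *Smad2/3* cKO replicate 4, adjusted p 0.0312), *Actn1* (control replicates 1, 2 and 3 and *Smad2/3* cKO replicates 1, 2 and 4, adjusted p 0.0353), *Itga6* (control replicates 1 and 2 and *Smad2/3* cKO replicates 1, 2 and 4, adjusted p 0.04), *Twist1* (control replicates 2 and 3 and *Smad2/3* cKO replicates 1, 2 and 4, adjusted p 0.0391) and *Acta2* (control replicates 1, 2 and 3 and *Smad2/3* cKO replicates 1, 3 and 4, adjusted p 0.0465).

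**Figure D3:**
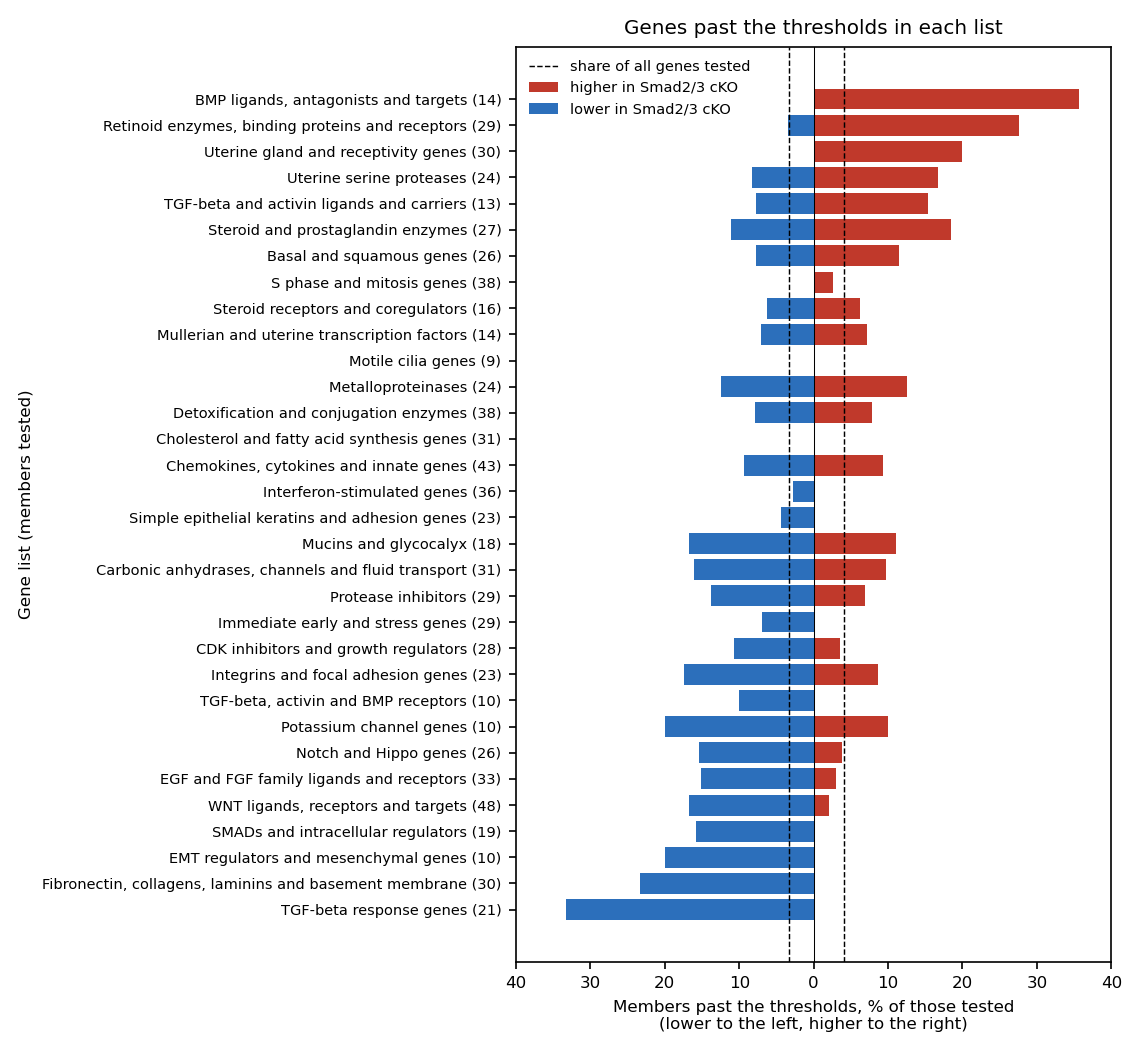
Bars give, for each list of at least 9 tested genes, the percentage of tested members that were higher (red, right) or lower (blue, left) in Smad2/3 cKO organoids, with the number tested in parentheses. Dashed lines mark 4.08% and 3.30%, the shares of all genes tested; the BMP list reaches 35.7% higher and the TGF-beta response list 33.3% lower.

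Of 23 keratins and adhesion genes of simple epithelia only *Cldn4*, a tight junction claudin, was called, with 5810.4, 2573 and 5469.7 in control and 953, 472, 1396 and 484 in *Smad2/3* cKO samples (−2.55 ± 0.42, adjusted p = 0.00455), and this call was lost on leaving out control replicates 1 and 3 and *Smad2/3* cKO replicates 2 and 4, adjusted p 0.026. The share called lower was 4.35%, against 3.30% of all genes, and 9 of the 23 lay wholly below the control range, as did 16.0% of all genes. *Epcam* read 21586 to 25386 against 19889 to 26744 and *Cdh1*, E-cadherin, 10860.1 to 21679 against 9542 to 14688, with overlap in both. The keratins *Krt8*, *Krt18* and *Krt19* were lower in all 4 *Smad2/3* cKO samples without passing the threshold. *Krt8* read 59889.6, 43439.7 and 39349 against 15797, 11942, 30243 and 13136 (−1.5 ± 0.32, adjusted p = 0.0124) and *Krt19* read 30821, 27949.7 and 43966 against 6539, 5765, 19471 and 10143 (−1.85 ± 0.39, adjusted p = 0.0118).

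Of 26 basal and squamous genes 3 were higher and 2 lower (11.5% and 7.69%, against 4.08% and 3.30% of all genes). *Krt6b*, a keratin of stratified and activated epithelia, read 139, 126 and 171 in control and 4871, 2685, 1689 and 3523 in *Smad2/3* cKO organoids (4.36 ± 0.32, adjusted p = 0.000145). *Trp63*, the regulator of basal cells, was nearly unread in control samples (0, 0 and 4.91) and read 26.6, 49.9, 25.6 and 109 in *Smad2/3* cKO samples (4.64 ± 0.87, adjusted p = 0.00714). *Lor*, loricrin of the cornified envelope, fell, with 336 to 636 in control and 27.6 to 103 in *Smad2/3* cKO samples (−2.91 ± 0.46, adjusted p = 0.00376). *Krt80* rose (0.72 ± 0.15, adjusted p = 0.00999), and *Pkp3*, a desmosome protein, fell (−0.69 ± 0.13, adjusted p = 0.00712). Single samples ended the calls of *Trp63* (control replicates 1 and 2 and *Smad2/3* cKO replicates 1, 2, 3 and 4, adjusted p 0.0311), *Lor* (control replicates 1, 2 and 3, adjusted p 0.0187), *Krt80* (control replicates 1, 2 and 3 and *Smad2/3* cKO replicates 1, 3 and 4, adjusted p 0.0418) and *Pkp3* (control replicates 1, 2 and 3 and *Smad2/3* cKO replicates 1, 2, 3 and 4, adjusted p 0.0319).

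Proteases and their inhibitors were called in both directions. Of 24 serine proteases of the uterus 4 rose (16.7%, against 4.08%) and 2 fell (8.33%, against 3.30%). *Prss29*, the implantation serine proteinase 2, was listed at 0 in the control samples and read 188, 383, 6403 and 293 in *Smad2/3* cKO organoids, with replicate 3 far above the other 3. *Tmprss11a* read 5.79, 5.22 and 3.6 against 124, 1498, 1258 and 629.9 (6.75 ± 0.77, adjusted p = 0.000946), while its relative *Tmprss11d* moved from 219.5, 281 and 836 to 3.71, 0.92, 0 and 0. The tissue kallikrein *Klk1* read 14.5, 27.9 and 66.1 against 262, 1507, 939 and 4558 (5.2 ± 0.86, adjusted p = 0.00438). Its close relatives *Klk1b21*, *Klk1b24* and *Klk1b27*, chosen after the values were seen, read 788 to 2414, 26.7 to 169 and 58.8 to 128 in *Smad2/3* cKO samples and at most 74.4, 5.35 and 1.77 in control samples. Reads of these near-identical kallikreins may be split among them. *Prss22*, a tryptase-like protease, fell from 3154, 2732 and 3616 to 279.6, 389.7, 903 and 442 (−2.78 ± 0.34, adjusted p = 0.00126).

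Metalloproteinases gave 3 rises and 3 falls among 24 (12.5% each way, against 4.08% and 3.30% of all genes). *Mmp15*, a membrane-type enzyme, read 66.3, 116 and 279 against 3885, 1865, 1153 and 2613 (4.05 ± 0.51, adjusted p = 0.0014), and *Mmp7*, matrilysin, read 27559, 23889 and 9397 against 2489.5, 4469, 1675 and 963 (−3.16 ± 0.52, adjusted p = 0.00432). *Mmp14* read 3402 to 4659 in control and 787 to 2047 in *Smad2/3* cKO samples and *Mmp11* read 147 to 238 against 4.57 to 36.4, and both fell. In the other direction, *Adamts1* and *Adamts9*, which cut proteoglycans, rose by 1.24 ± 0.18 and 1.38 ± 0.26 on the log2 scale. Among 29 protease inhibitors 2 rose and 4 fell (6.9% and 13.8%, against 4.08% and 3.30%). *Serpina3n* read 2.91, 0.899 and 73.3 in control and 921, 1977, 979.8 and 484 in *Smad2/3* cKO samples (6.88 ± 1.09, adjusted p = 0.00387), and *Wfdc18* read 123, 14.9 and 29.2 against 1254, 1667, 1487 and 391 (4.75 ± 0.71, adjusted p = 0.003). *Spink12*, a Kazal-type inhibitor, fell from 337, 377 and 149.6 to 2.91, 15.1, 7.15 and 3.6 (−5.26 ± 0.61, adjusted p = 0.000978), and *Serpina9* and *Serpinb5* fell by 3.39 and 2.26 on the log2 scale. In these families the calls that single samples ended were those of *Klk1* (control replicates 1 and 2 and *Smad2/3* cKO replicate 2, adjusted p 0.0241), *Klk1b24* (control replicates 1 and 3 and *Smad2/3* cKO replicates 2 and 4, adjusted p 0.0203), *Adamts1* (control replicate 1, adjusted p 0.0146), *Adamts9* (control replicates 1 and 2 and *Smad2/3* cKO replicates 1, 2 and 4, adjusted p 0.0367), *Mmp7* (control replicates 1 and 2 and *Smad2/3* cKO replicate 1, adjusted p 0.0245), *Mmp11* (control replicates 1, 2 and 3 and *Smad2/3* cKO replicates 1 and 2, adjusted p 0.0354), *Mmp14* (control replicates 1, 2 and 3 and *Smad2/3* cKO replicates 1, 2 and 4, adjusted p 0.0337), *Serpina3n* (control replicates 1 and 2 and *Smad2/3* cKO replicates 1 and 2, adjusted p 0.0215), *Wfdc18* (control replicate 2, adjusted p 0.0139), *Serpina9* (control replicates 1 and 2 and *Smad2/3* cKO replicate 4, adjusted p 0.0232) and *Serpinb5* (control replicates 1 and 2, adjusted p 0.0134).

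The list of gland and receptivity genes held 6 rises and no falls among 30 genes tested (background 4.08%), but its median was −0.30, with 7 of the 30 wholly above and 7 wholly below the control range (14.8% and 16.0% of all genes tested were so). The rises were those of *Prss29*, *Cuzd1*, *Napsa*, *Gpx3*, *Gjb2* and *Sult1d1*. *Napsa*, the aspartic protease napsin A, read 32.5, 72 and 172 in control and 10201, 6776, 5524 and 12753 in *Smad2/3* cKO samples (6.8 ± 0.50, adjusted p = 0.000146). *Gpx3*, a secreted glutathione peroxidase, read 9908, 11445 and 8141 against 134261, 148825, 124647 and 221303 (3.98 ± 0.24, adjusted p = 6.24e-05). *Gjb2*, connexin 26, read 1670.5, 1577 and 5127 against 6532, 11820.1, 12669.7 and 13643 (2.17 ± 0.42, adjusted p = 0.0081). *Cuzd1*, a secreted zona pellucida-like protein, read 25.7, 32.6 and 13.2 against 11041, 2937, 2519 and 12811, with replicates 1 and 4 well above replicates 2 and 3. The number of rises in the list was 4, 4 and 5 without control replicates 1, 2 and 3 in turn and 6, 4, 5 and 4 without *Smad2/3* cKO replicates 1, 2, 3 and 4. The gland transcription factor *Foxa2* overlapped between the groups (244, 93.9 and 200.2 against 81.8, 365, 228 and 99). *Ltf*, itself an estrogen-responsive secretory product and here the locus that carries Cre, read 600426, 429014 and 394181 against 81420.4, 208980.0, 194039 and 55396 and missed the threshold (−2.0 ± 0.50, adjusted p = 0.0232).

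Other secreted products, enzymes and receptors, chosen after the values were seen, also passed the thresholds. *Guca2b*, uroguanylin, read 786, 808 and 2108 in control and 164297, 42903, 61280.0 and 78974 in *Smad2/3* cKO organoids (6.11 ± 0.48, adjusted p = 0.000178). *Ctsb*, the lysosomal protease cathepsin B, read 98672, 80624 and 131151 against 588352, 641674, 576626 and 644794 (2.59 ± 0.31, adjusted p = 0.00105). *Selenop*, a selenium carrier, read 1852, 1633 and 1549 against 45928, 23139, 12216 and 16169.9 (3.68 ± 0.38, adjusted p = 0.000582). The groups were far apart in each. *Prl6a1*, of the prolactin family, rose by 3.84 ± 0.51 and *Degs2*, a sphingolipid desaturase, by 5.27 ± 0.49 on the log2 scale. *Clu*, the chaperone clusterin, fell from 171855, 99188 and 69386 to 14857, 30669.6, 28291 and 8096 (−2.56 ± 0.48, adjusted p = 0.00748). *Havcr1*, best known as an injury marker of kidney tubules, read 131, 69.8 and 250.1 against 24262, 8284, 12172 and 25818 (6.9 ± 0.49, adjusted p = 0.000122). *Tshr*, the thyrotropin receptor, read 47.1, 43.4 and 37 against 4963, 3836, 2897 and 4931 and had the smallest adjusted p of the genes named (2.67e-06, log2 fold change 6.55 ± 0.22). *Lifr*, the receptor for leukemia inhibitory factor, read 718, 475 and 1564 against 10806, 6786, 9127 and 11883 (3.54 ± 0.36, adjusted p = 0.000563). Single samples ended the calls of *Gjb2* (control replicates 1 and 2 and *Smad2/3* cKO replicates 2, 3 and 4, adjusted p 0.0402), *Sult1d1* (control replicates 1, 2 and 3 and *Smad2/3* cKO replicates 2 and 4, adjusted p 0.0204), *Prl6a1* (control replicate 2, adjusted p 0.0118) and *Clu* (control replicates 1, 2 and 3 and *Smad2/3* cKO replicates 1 and 4, adjusted p 0.036).

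**Figure D4:**
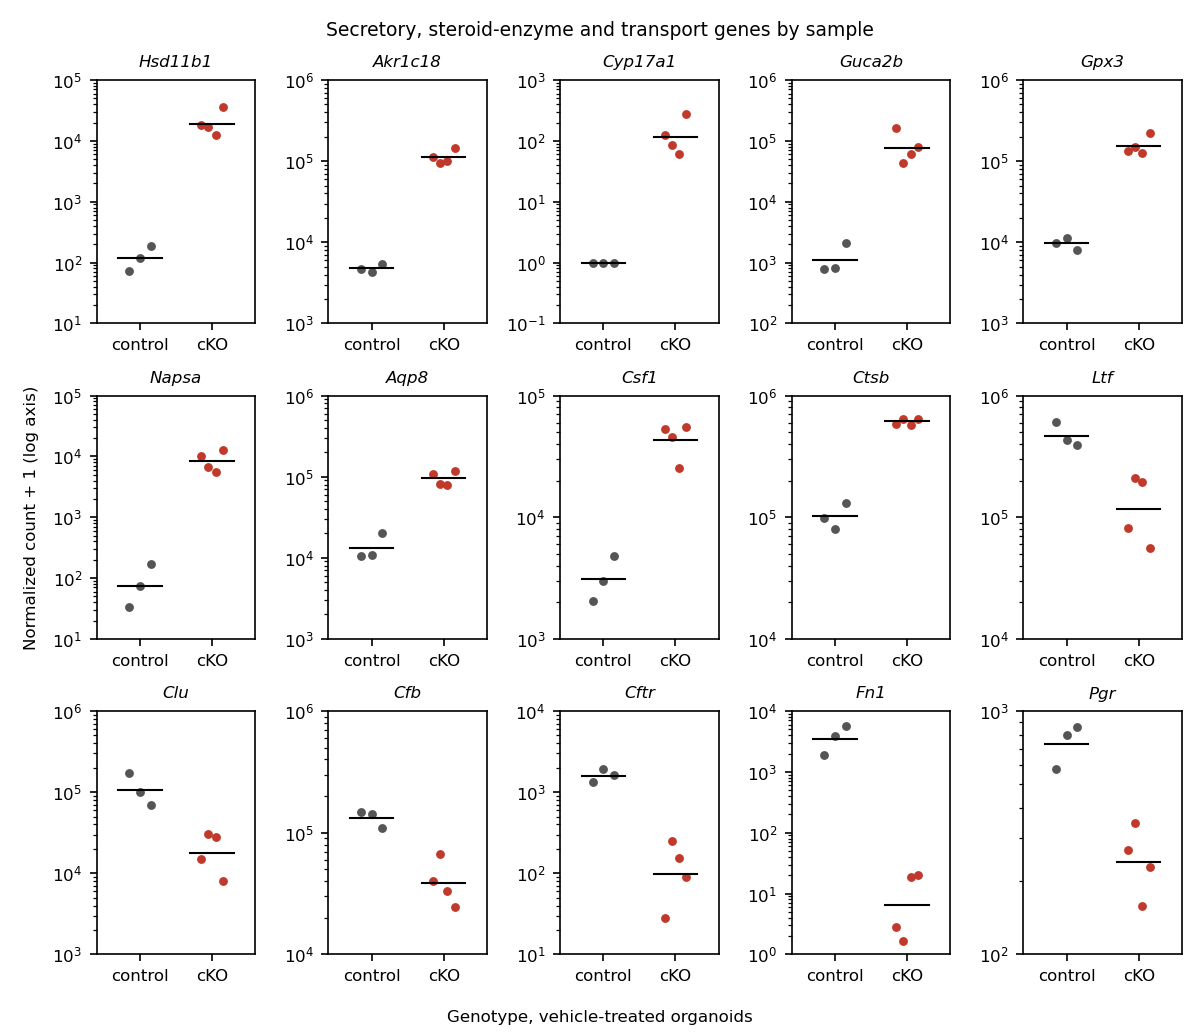
Points are the normalized counts plus 1 of single samples on a log axis, 3 control (grey) and 4 Smad2/3 cKO (red) samples per gene, and the bar is their geometric mean. The genes from Hsd11b1 to Ctsb lie higher in all Smad2/3 cKO samples and those from Ltf to Pgr lie lower, with no overlap in any panel.

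Enzymes of steroid and prostaglandin metabolism gave 5 rises and 3 falls among 27 tested (18.5% and 11.1%, against 4.08% and 3.30% of all genes), with a median of 0.72. *Hsd11b1*, which regenerates active glucocorticoid, read 71.8, 116 and 186 in control and 18061, 16807, 12351 and 35519 in *Smad2/3* cKO organoids (7.35 ± 0.39, adjusted p = 3.12e-05). *Akr1c18*, which inactivates progesterone, read 4650.2, 4247 and 5452 against 113862, 95623, 100815 and 147087 (4.57 ± 0.19, adjusted p = 1.19e-05). *Akr1b7*, an aldose reductase with prostaglandin F synthase activity, read 0, 2.68 and 5.31 against 1246, 287, 462 and 883 (7.76 ± 0.71, adjusted p = 0.000346). *Cyp17a1*, a hydroxylase and lyase of steroid synthesis, was listed at 0 in control samples and read 124, 85.7, 60.4 and 273 in *Smad2/3* cKO samples. The rises in this list numbered 4, 4 and 5 without control replicates 1, 2 and 3 in turn and 5, 6, 5 and 4 without *Smad2/3* cKO replicates 1, 2, 3 and 4. *Cyp21a1*, the steroid 21-hydroxylase, moved the other way, from 202, 196 and 278 to 0, 12.4, 20.5 and 2.42 (−5.32 ± 0.97, adjusted p = 0.00655). *Akr1c13* and *Ptges2* fell by 1.24 and 0.78 on the log2 scale. Of the glucocorticoid-responsive genes *Sgk1* and *Fkbp5*, chosen after the values were seen, *Sgk1* rose from 2069, 1506 and 1698 to 8433, 5705, 5360.0 and 10407 (2.05 ± 0.24, adjusted p = 0.00104). *Fkbp5* read 143, 206 and 175 in control and 107, 82.5, 102 and 72 in *Smad2/3* cKO samples and was not called (−0.93 ± 0.28, adjusted p = 0.045).

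Among 16 steroid receptors and coregulators 1 rose and 1 fell (6.25% each way, against 4.08% and 3.30% of all genes). *Pgr*, the progesterone receptor, read 577, 795 and 858 in control and 268, 344, 157 and 227 in *Smad2/3* cKO samples (−1.61 ± 0.28, adjusted p = 0.00539). *Vdr*, the vitamin D receptor, read 125, 104 and 246 against 797, 898, 545 and 689.7 (2.28 ± 0.31, adjusted p = 0.00203). *Esr1*, the estrogen receptor, overlapped between the groups (3301, 3938 and 4374 against 3959, 7684, 3969 and 5486; log2 fold change 0.40 ± 0.24, adjusted p = 0.272). Of 14 Müllerian and uterine transcription factors 1 rose and 1 fell (7.14% each way, against the same shares of all genes). *Klf9*, a Krüppel-like factor that acts with the progesterone receptor, rose from 310.4, 297 and 249 to 773, 912, 826 and 725 (1.5 ± 0.16, adjusted p = 0.000759). *Elf3*, an epithelial ETS factor, fell from 13774, 12338 and 15126 to 5425, 7987, 6358 and 4345 (−1.22 ± 0.20, adjusted p = 0.00451). Single samples ended the calls of *Cyp21a1* and *Ptges2* (control replicates 1, 2 and 3 and *Smad2/3* cKO replicate 4, adjusted p 0.0309 and 0.0214), *Akr1c13* (control replicate 2, adjusted p 0.0111), *Pgr* (control replicates 1, 2 and 3 and *Smad2/3* cKO replicates 1 and 4, adjusted p 0.0281), *Vdr* (control replicates 1 and 2, adjusted p 0.0127) and *Elf3* (control replicates 1, 2 and 3 and *Smad2/3* cKO replicate 1, adjusted p 0.022).

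Genes of transport across the epithelium were called in both directions as well. Of 31 carbonic anhydrases, channels and fluid transporters 3 were higher and 5 lower (9.68% and 16.1%, against 4.08% and 3.30% of all genes). *Aqp8*, a water channel, read 10445, 10792 and 20208 in control and 107821, 80271, 79691 and 117605 in *Smad2/3* cKO organoids (2.85 ± 0.27, adjusted p = 0.000423). *Aqp4*, another water channel, went from 611, 264 and 928 to 86.5, 18.9, 56 and 95.3 (−3.26 ± 0.60, adjusted p = 0.00693). The chloride channel gene *Cftr* read 1319, 1903 and 1622 against 26.8, 249, 152 and 89.6 (−4.01 ± 0.63, adjusted p = 0.00361). *Car4* and *Car2*, a membrane-bound and a cytosolic carbonic anhydrase, moved in opposite directions, *Car2* by −1.06 ± 0.15 (adjusted p = 0.00264). *Otop1*, a proton channel, rose from 42.6, 29.2 and 81 to 233, 721, 778 and 271 (3.19 ± 0.52, adjusted p = 0.00418), and *Clic6* and the bicarbonate transporter *Slc4a4* fell by 4.11 and 1.59 on the log2 scale. Of 10 potassium channel genes 1 rose and 2 fell (10% and 20%, against 4.08% and 3.30%). *Kcng1* read 104, 150.5 and 551 in control samples and was listed at 0 in all *Smad2/3* cKO samples, *Kcne3* read 1309.8, 1315 and 449 against 81.3, 39.5, 183 and 132 (−3.27 ± 0.55, adjusted p = 0.00494), and *Kcnj16* read 6.81, 2.63 and 0 against 245, 101, 28.2 and 70.4 (4.8 ± 0.89, adjusted p = 0.00693). The muscle acetylcholine receptor subunit *Chrna1*, chosen after the values were seen, fell from 1884, 1817 and 4403 to 29.8, 36.4, 59.1 and 52 (−5.82 ± 0.37, adjusted p = 7.79e-05). The drug pump *Abcb1b*, chosen likewise, rose from 4254, 3044 and 3173 to 42872, 72794, 69850.4 and 109823 (4.34 ± 0.29, adjusted p = 8.59e-05). Among transport genes the omission of a sample ended the calls of *Aqp4* (control replicates 1, 2 and 3 and *Smad2/3* cKO replicates 1, 3 and 4, adjusted p 0.0352), *Cftr* (control replicates 1, 2 and 3 and *Smad2/3* cKO replicate 4, adjusted p 0.0202), *Car2* (control replicates 1 and 2, adjusted p 0.0146), *Otop1* (control replicates 1 and 2 and *Smad2/3* cKO replicate 2, adjusted p 0.0216), *Clic6*, *Slc4a4* and *Kcnj16* (control replicates 1, 2 and 3 and *Smad2/3* cKO replicates 1, 2 and 4, adjusted p 0.0323, 0.0292 and 0.0262) and *Kcne3* (control replicates 1 and 2 and *Smad2/3* cKO replicates 1 and 4, adjusted p 0.028).

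Mucin and glycan genes gave 2 rises and 3 falls among 18 (11.1% and 16.7%, against 4.08% and 3.30% of all genes). *Muc16* read 25.9, 94 and 39.9 in control organoids, was listed at 0 in 3 *Smad2/3* cKO samples and read 1.98 in replicate 4. *Muc20* read 3901 to 6888 against 9166 to 11992 (1.06 ± 0.20, adjusted p = 0.00693), and *Muc1* overlapped (11296 to 14749 against 9273 to 13447). The sialyltransferases *St3gal1* and *St6gal1*, which place sialic acid in different linkages, went in opposite directions. *St3gal1* read 977, 932 and 895 against 1710.1, 1578, 1781 and 1943 (0.90 ± 0.13, adjusted p = 0.00221), and *St6gal1* read 213, 364 and 146 against 3.96, 11.3, 24.8 and 1.05 (−4.9 ± 0.82, adjusted p = 0.00472). *Gcnt3*, which branches mucin glycans, fell by 2.06 on the log2 scale (adjusted p = 0.00531). Of these 5 calls, those that single samples ended were those of *Muc16* (control replicates 1, 2 and 3, adjusted p 0.0312), *Muc20* (control replicates 2 and 3 and *Smad2/3* cKO replicates 1, 2, 3 and 4, adjusted p 0.0314), *St3gal1* (control replicate 2, adjusted p 0.0116), *St6gal1* (control replicates 1, 2 and 3 and *Smad2/3* cKO replicate 1, adjusted p 0.0286) and *Gcnt3* (control replicates 1, 2 and 3 and *Smad2/3* cKO replicates 1 and 4, adjusted p 0.0272).

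Retinoid genes gave 8 rises and 1 fall among 29 (27.6% higher, against 4.08%), with a median of 0.30. *Rdh12*, a retinal reductase, read 69.8, 20.9 and 71.1 in control and 2187, 2233, 4404 and 8860.0 in *Smad2/3* cKO samples (6.27 ± 0.56, adjusted p = 0.000332). *Adh1*, an alcohol dehydrogenase that can oxidize retinol, read 0, 2.63 and 3.47 against 211, 197, 178 and 139 (6.15 ± 0.58, adjusted p = 0.000392). *Cyp26a1*, which degrades retinoic acid, rose by 4.43 ± 0.54 on the log2 scale (adjusted p = 0.00124). *Fabp5*, a carrier of fatty acids and retinoic acid, read 11155, 7597 and 7888 against 18793, 43838, 34936 and 26477 (1.76 ± 0.28, adjusted p = 0.00404). *Rdh10*, which oxidizes retinol to retinal, was the member that fell, from 18882, 19939 and 19517 to 4975, 8774, 5942 and 3428 (−1.83 ± 0.27, adjusted p = 0.00287). The rises in the list numbered 4, 4 and 7 without control replicates 1, 2 and 3 in turn and 8, 7, 8 and 5 without *Smad2/3* cKO replicates 1, 2, 3 and 4. Omission of a sample ended the calls of *Fabp5* (control replicates 1, 2 and 3 and *Smad2/3* cKO replicate 4, adjusted p 0.0222) and *Rdh10* (control replicates 1 and 2, adjusted p 0.0161).

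Of 48 WNT genes 8 fell (16.7%, against 3.30% of all genes) and 1 rose (2.08%, against 4.08%), with a median of −0.75. The number of falls was 1, 1 and 4 without control replicates 1, 2 and 3 in turn and 5, 6, 11 and 5 without *Smad2/3* cKO replicates 1, 2, 3 and 4. *Tcf7l1*, a repressor at WNT targets, read 131, 174 and 260.4 against 10.8, 1.29, 0 and 4.61, *Fzd10*, a receptor, read 164, 181 and 297 against 0.952, 13.5, 10.1 and 9.76, and *Wnt5b* rose from 4.89, 18.3 and 20.7 to 711, 135, 235 and 117 (4.08 ± 0.70, adjusted p = 0.00517). A list of 33 EGF and FGF family genes, their targets and regulators and related growth factors was examined next. Of these, 5 fell (15.2%, against 3.30%) and 1 rose (3.03%, against 4.08%), with a median of −0.84. The falls included *Pdgfb*, which was also counted among the response genes of TGFβ. *Fgfr2*, an FGF receptor, read 1754, 1356 and 1860.2 in control and 4792, 5529, 3990.0 and 5457 in *Smad2/3* cKO organoids (1.58 ± 0.17, adjusted p = 0.000638). *Fgf1* went from 94.4, 238 and 255 to 2.23, 15.1, 2.91 and 0, and *Etv5*, a transcriptional target of FGF signaling, read 837 to 970.2 in control and 250.5 to 511 in *Smad2/3* cKO samples (−1.27 ± 0.24, adjusted p = 0.00713). The culture medium contained WNT, EGF and FGF family proteins in both groups, per the methods of the study. Of 26 Notch and Hippo genes 4 fell and 1 rose (15.4% and 3.85%, against 3.30% and 4.08%). Among the falls were *Notch4* (75.9, 60.8 and 124 against 7.0, 4.85, 13 and 1.58), *Tead2* (294, 248 and 231 against 16.7, 53.8, 69.9 and 33.2) and *Amotl2* (by 1.17 on the log2 scale). *Hey1*, which BMP signals also induce, rose from 59.4, 66.4 and 49.6 to 152, 215, 218 and 137 (1.59 ± 0.29, adjusted p = 0.0067). The transcription factor gene *Sox4*, chosen after the values were seen, fell from 3142, 2799.5 and 3707 to 76, 242, 249 and 60.5 (−4.62 ± 0.50, adjusted p = 0.000723). The gap junction gene *Gja1*, chosen likewise, fell from 625, 624 and 782 to 45.8, 28.3, 57.8 and 57.2 (−3.86 ± 0.31, adjusted p = 0.000193). Across these signaling families single samples ended the calls of *Tcf7l1* and *Fzd10* (control replicates 1, 2 and 3, adjusted p 0.0172 and 0.0168), *Wnt5b* (control replicates 1 and 2 and *Smad2/3* cKO replicate 3, adjusted p 0.022), *Fgf1* (control replicates 1, 2 and 3 and *Smad2/3* cKO replicate 1, adjusted p 0.0243), *Etv5* (control replicates 1, 2 and 3 and *Smad2/3* cKO replicates 1, 3 and 4, adjusted p 0.0354), *Notch4* (control replicates 1, 2 and 3 and *Smad2/3* cKO replicates 1, 2 and 4, adjusted p 0.0285), *Tead2* (control replicates 1, 2 and 3 and *Smad2/3* cKO replicate 4, adjusted p 0.0291), *Amotl2* (control replicates 1, 2 and 3 and *Smad2/3* cKO replicates 1 and 2, adjusted p 0.0388) and *Hey1* (control replicates 1, 2 and 3 and *Smad2/3* cKO replicates 1, 2, 3 and 4, adjusted p 0.0257).

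Of 38 S phase and mitosis genes *Rrm2*, a subunit of ribonucleotide reductase, rose from 2799, 3009 and 3895 to 16367, 10152, 9976 and 14550.1 (1.96 ± 0.21, adjusted p = 0.000726) and no other was called (2.63%, against 4.08%). *Mki67* overlapped (699.6, 692 and 1466 against 1181, 1205, 1514 and 1918; adjusted p = 0.134). Of 28 growth regulators 3 fell and 1 rose (10.7% and 3.57%, against 3.30% and 4.08% of all genes). *Ccnd2*, cyclin D2, read 2559, 934 and 454 against 27.6, 123, 121 and 35.4 (−4.03 ± 0.69, adjusted p = 0.0052). *Trp53* (−0.84 ± 0.14, adjusted p = 0.00474) and *Myc* (−0.81 ± 0.15, adjusted p = 0.00675) fell, and *Cdkn2c*, an inhibitor of the cyclin D kinases, rose by 1.12 ± 0.22 (adjusted p = 0.00887). Of the growth inhibitors through which TGFβ arrests epithelial cells, *Cdkn2b* read 1717, 1223 and 832 against 625, 533, 633 and 414 and was not called (−1.15 ± 0.26, adjusted p = 0.0154), and *Cdkn1a* overlapped (5507 to 9204 against 4075 to 6067). The call of *Rrm2* held in all 7 fits without a sample, while single samples ended those of *Ccnd2* (control replicates 1 and 2 and *Smad2/3* cKO replicates 1 and 4, adjusted p 0.0241), *Trp53* (control replicates 1, 2 and 3, adjusted p 0.0229) and *Myc* and *Cdkn2c* (control replicates 1, 2 and 3 and *Smad2/3* cKO replicates 1, 2 and 4, adjusted p 0.0337 and 0.036).

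Innate and inflammatory genes were called 4 times in each direction among 43 (9.3% each way, against 4.08% higher and 3.30% lower in all genes). *Csf1*, the macrophage growth factor, read 2047, 3014 and 4823 in control and 53274, 45553, 25595 and 54824 in *Smad2/3* cKO organoids (3.79 ± 0.34, adjusted p = 0.000304). *Defb1*, a defensin, read 33.3, 21.7 and 32.3 against 1016, 779, 464 and 994 (4.72 ± 0.33, adjusted p = 0.000103). *Nlrp6*, an inflammasome sensor of epithelia, read 186, 39.9 and 170.3 against 568, 2191, 1859 and 858 (3.44 ± 0.62, adjusted p = 0.00607). *Cfb*, complement factor B, fell from 148037, 141607 and 109129 to 40110.2, 67106, 33464 and 24355 (−1.78 ± 0.33, adjusted p = 0.00696). *Tnfaip3*, a brake on NF-κB, read 953 to 1695 in control and 217 to 589 in *Smad2/3* cKO samples (−1.93 ± 0.34, adjusted p = 0.00586), and *Tnfrsf11b*, osteoprotegerin, read 119.9 to 284 against 4.73 to 20.9, both falls. *Tlr4*, a receptor for bacterial lipopolysaccharide, rose from 901, 867 and 602 to 1709.6, 2318, 1550.1 and 2195, and the adhesion receptor gene *Vcam1* fell from 533, 631 and 266 to 57.9, 102, 16.3 and 39.4, and both were chosen after the values were seen. Of 36 interferon-stimulated genes only *Usp18* was called, as a fall (876, 919 and 716 against 352, 265, 227 and 185), which is 2.78%, against 3.30% of all genes. Of the 36, 13 lay wholly below the control range (the share of all genes doing so was 16.0%), and the median was −0.43. The leukocyte gene *Ptprc*, CD45, was higher in all *Smad2/3* cKO samples (12.5, 17.4 and 38.5 against 223, 309, 123 and 248; 3.33 ± 0.46, adjusted p = 0.00228), not in replicate 2 alone. *Csf1r*, the receptor for CSF1, overlapped (166, 58 and 384 against 167, 822, 481 and 440.4), and the summed leukocyte markers were 1318 to 2939 in control and 2119 to 8249 in *Smad2/3* cKO samples (exact permutation p = 0.114). *Il2rb*, a lymphocyte cytokine receptor chain chosen after the values were seen, was listed at 0 in control samples and read 63.2, 29.4, 58.5 and 248. The lipid carriers *Fabp4* and *Cd36*, chosen likewise and also made by macrophages, read 1291 to 4036 and 2843 to 6538 in *Smad2/3* cKO samples and 74 to 251 and 100.4 to 1089 in control samples, and were high in replicates other than 2 too. The part of leukocytes in these differences was not tested. Single samples ended the calls of *Tlr4* (control replicates 1 and 2 and *Smad2/3* cKO replicate 4, adjusted p 0.0136), *Vcam1* (control replicates 1 and 2 and *Smad2/3* cKO replicates 1 and 4, adjusted p 0.0312), *Nlrp6* (control replicates 1, 2 and 3 and *Smad2/3* cKO replicates 2, 3 and 4, adjusted p 0.0184), *Cfb* (control replicates 1, 2 and 3 and *Smad2/3* cKO replicates 1, 3 and 4, adjusted p 0.0332), *Tnfaip3* and *Cd36* (control replicates 1 and 2 and *Smad2/3* cKO replicates 1, 2 and 4, adjusted p 0.0316 and 0.0257) and *Tnfrsf11b*, *Usp18* and *Ptprc* (control replicates 1 and 2, adjusted p 0.0229, 0.014 and 0.0133).

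None of 31 cholesterol and fatty acid synthesis genes and none of 9 motile cilia genes was called, with medians of −0.04 and −1.08. Of all genes tested 7.38% were called, so a count of 0 among 9 genes says little. Of the 9 cilia genes 5 lay wholly below the control range and 1 wholly above it (16.0% and 14.8% of all genes tested were so). Of the 31 lipid genes 1 lay wholly below and 4 wholly above it. The members with the smallest p, *Me1* and *Elovl6* of lipid synthesis and the cilia genes *Myb* and *Pifo*, differed by 0.66 (adjusted p = 0.0123), 0.79 (0.0206), −2.41 (0.0138) and −1.93 (0.0637) in log2 units. Of 38 detoxification enzymes 3 rose and 3 fell (7.89% each way, against 4.08% and 3.30% of all genes). *Gstp1*, a glutathione transferase, read 9584 to 15064 in control and 20513 to 29114 in *Smad2/3* cKO samples (1.09 ± 0.20, adjusted p = 0.00661), and *Ephx2*, a soluble epoxide hydrolase, read 262 to 313 against 12.6 to 63.2 (−3.33 ± 0.52, adjusted p = 0.00356). *Mgst3*, a microsomal glutathione transferase, and *Cyp2j6*, a cytochrome P450, fell (−1.69 ± 0.31, adjusted p = 0.00693 and −1.05 ± 0.21, adjusted p = 0.00879). Of 29 immediate early and stress genes *Fos* fell from 2581, 2178 and 2381 to 406, 644, 552 and 260.4 (−2.43 ± 0.28, adjusted p = 0.000994) and *Junb* by 0.94 on the log2 scale (adjusted p = 0.00404), and no other was called (6.9% lower, against 3.30%). *Fos* kept its call in all 7 fits without 1 sample, while single samples ended the calls of *Gstp1* (control replicates 1, 2 and 3 and *Smad2/3* cKO replicates 1, 3 and 4, adjusted p 0.0273), *Ephx2* and *Junb* (control replicates 1, 2 and 3 and *Smad2/3* cKO replicate 4, adjusted p 0.0208 and 0.0209), *Mgst3* (control replicates 1 and 2 and *Smad2/3* cKO replicates 1, 2 and 4, adjusted p 0.0359) and *Cyp2j6* (control replicates 1, 2 and 3 and *Smad2/3* cKO replicates 1, 2, 3 and 4, adjusted p 0.0371).

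With A83-01, far fewer genes passed the thresholds between the genotypes. This comparison used other samples (control + A83-01 and *Smad2/3* cKO + A83-01, n = 4 each), so it shares no value with the vehicle comparison, although 4 sample numbers in the labels occur with both treatments, so that some mice may have given both. Of 12915 genes tested 3 were called (0.0232%), *Ncald*, *Otop1* and *Nlrp6*, all higher in *Smad2/3* cKO organoids, and 1229 had an unadjusted p below 0.05. Of the genes called with vehicle, 517 of 536 that were higher kept a positive sign with A83-01 and 347 of 389 that were lower and tested there kept a negative sign. Their median log2 fold changes were 1.59 and −1.70 with vehicle, where the values chose the genes, and 0.48 and −0.46 with A83-01. How many of all genes tested kept their sign was not counted, so the sign counts stand without a baseline. *Otop1* differed by 3.19 with vehicle and 3.06 with A83-01 (adjusted p = 0.00285), and *Nlrp6* by 3.44 and 2.95 (adjusted p = 0.00916). *Ncald*, which encodes a neuronal calcium sensor, differed by 3.48 and 2.0 (adjusted p = 0.00285).

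The difference between these differences was tested as the interaction of genotype and A83-01 over all 15 samples. It passed an adjusted p of 0.01 in 72 of 13066 genes (0.551%), and all 72 were among those called with vehicle. *Tgfb2* read 13812 ± 3439 (SD, n = 4) in control + A83-01 and 29470.5 ± 8935 (SD, n = 4) in *Smad2/3* cKO + A83-01 organoids, and the interaction was −5.77 on the log2 scale (adjusted p = 9.75e-06). *Gpx3* read 124319 ± 27908 and 201415 ± 33508 with A83-01 (interaction −3.27, adjusted p = 0.000175). *Fn1* read 9.81 ± 6.39 and 13.7 ± 5.44, low in both genotypes (interaction 9.61, adjusted p = 0.000298). In *Tgfb2* and *Fn1* the mean of control + A83-01 organoids lay within the range of the vehicle-treated *Smad2/3* cKO samples, and in *Gpx3* just below it. *Tmprss6*, a serine protease, and *Cav1*, caveolin 1, were chosen after the values were seen. *Tmprss6* had differences of 4.49 and 4.63 (interaction adjusted p = 0.984), and *Cav1* of −5.21 and −3.65 (interaction adjusted p = 0.695), though neither passed the threshold with A83-01 (adjusted p = 0.2 and 0.173). Single samples ended the vehicle calls of *Tmprss6* (control replicates 1 and 2 and *Smad2/3* cKO replicate 1, adjusted p 0.0224) and *Cav1* (control replicates 1, 2 and 3 and *Smad2/3* cKO replicate 4, adjusted p 0.0277). The number of A83-01 calls was 0 without control + A83-01 replicate 2 or 4 or *Smad2/3* cKO + A83-01 replicate 1, 2 or 3. The number of interactions was 39 without control + vehicle replicate 2, 46 without control + A83-01 replicate 4, 45 without *Smad2/3* cKO replicate 4 and 44 without *Smad2/3* cKO + A83-01 replicate 3. A83-01 calls rose to 72 with the label number series as a covariate, and the series is partly tied to genotype there, since all *Smad2/3* cKO + A83-01 samples have numbers below 390.

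**Figure D5:**
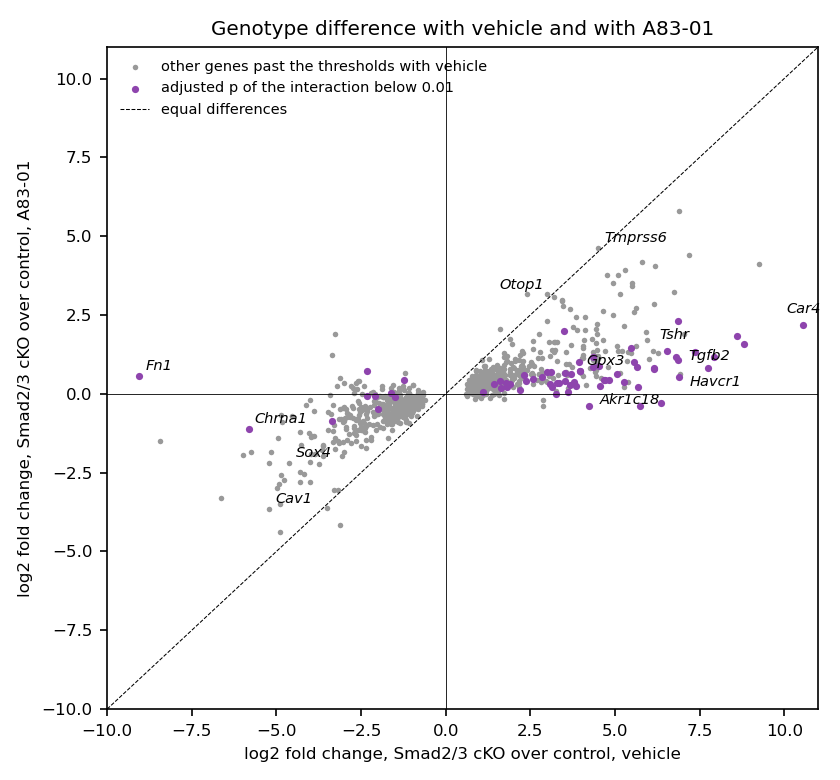
Each point is 1 of the 925 genes called with vehicle and tested with A83-01. The horizontal axis is the log2 fold change of Smad2/3 cKO over control with vehicle and the vertical axis the same with A83-01; most points lie nearer to 0 on the vertical axis, purple points have an interaction adjusted p below 0.01, and Otop1 and Tmprss6 lie near the dashed line of equal differences.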

How the data were processed

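RNA-seq libraries of mouse endometrial organoids were made by the authors with a low-input kit. The deposited signal values are counts per gene that the authors estimated with Salmon 1.4.0 on GRCm39 and divided by a DESeq2 1.32.0 size factor for each sample. Whole reads could not be recovered (2.6% to 5.2% of values below 12 were whole within 0.02), so no count test was used. Values are log2(normalized count + 1), fitted with limma 3.58.1 (eBayes with trend) in R 4.3.3 for genes averaging 10 or more, with Benjamini-Hochberg adjustment. Per the labels, RNA of a genotype came from different mice, but a sample number occurs in both genotypes, and p-values measure the spread between these samples. On simulated data for *Smad2/3* cKO and control + vehicle (12877 genes), 13 of 68 changes of 1, 43 of 66 of 2 and 61 of 66 of 4 on the log2 scale were recovered, with 0 unchanged genes called. The simulation drew independent normal noise for each gene and changed only genes of higher level, so these rates need not hold for the real samples.

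Genes and lists were chosen with earlier results of these data known. Named genes are *Smad2*, *Smad3*, the 10 largest rises and 10 largest falls among called genes without overlap whose higher group averaged 100 or more, and in each of 38 lists its anchor genes and the 3 largest rises and falls called, or the 2 members with the smallest p. Genes named outside this rule, after their values were seen, are *Havcr1*, *Tshr*, *Guca2b*, *Akr1c18*, *Gpx3*, *Ctsb*, *Prl6a1*, *Degs2*, *Abcb1b*, *Cd36*, *Fabp4*, *Lifr*, *Selenop*, *Chrna1*, *Cav1*, *Clu*, *Sox4*, *Gja1*, *Sparc*, *Lama3*, *Lamb1*, *Igfbp3*, *Thbs1*, *Lmcd1*, *Fabp5*, *Smad7*, *Cdkn2b*, *Cdkn1a*, *Csf1r*, *Mki67*, *Gjb2*, *Klk1b27*, *Klk1b24*, *Klk1b21*, *Tmprss6*, *Tlr4*, *Vcam1*, *Il2rb*, *Fkbp5*, *Sgk1*, *Ncald*, *Actn1*, *Slc4a4* and *Car2*, with the leukocyte and stroma markers named in the description of the libraries. Promoters are from RefSeq (GRCm38.p6), searched in Python 3.11.15. Marker sums were compared by exact two-sided permutation tests. Alternatives were pseudocounts of 0.1 and 10, no filter or a minimum of 50, quantile normalization, equal totals, no trend, an adjusted p of 0.05, the replicate number as a block, the number series, all 15 samples in 1 fit, and leaving out each sample. Some genes are not reported here.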

Additional observations from a re-analysis of the deposited data

Results flagged for a closer look

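In 8 of the 183 groups of 4 *Smad2/3* cKO samples examined, 1 sample stood apart by Dixon's criterion, where chance gives 5%. In 4 genes that were listed at 0 in the other 3 samples, the sample apart read 6.61 for *Gper1* (replicate 3), 1.19 for *Col8a1* (replicate 4), 0.983 for *Cdh2* (replicate 1) and 1.98 for *Muc16* (replicate 4). With 3 values tied at 0, any value above 0 meets the criterion, so the 5% does not apply to these 4 genes. *Dpysl3* and *Tnc* were listed at 0 in replicate 2 and read 20.6 to 24.8 and 3.41 to 4.98 in the others. *Itgb5* read 4116 in replicate 3, against 3566 to 3634, and *Fzd10* read 0.952 in replicate 1, against 9.76 to 13.5. Most of these values are a few counts or fewer.

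The genotype difference with A83-01 differed from that with vehicle in 28 named genes (interaction, adjusted p below 0.01). These genes are a subset of those called with vehicle, and the interaction uses the same vehicle samples. The interaction was negative, with the rise in *Smad2/3* cKO organoids smaller under A83-01, in the following genes. It was −8.38 for *Car4*, −7.23 for *Slc46a2*, −6.76 for *Nptx1*, −6.75 for *Cuzd1*, −6.96 for *Akr1b7*, −6.04 for *Hsd11b1*, −5.77 for *Tgfb2*, −4.02 for *Id4*, −3.52 for *Krt6b*, −5.62 for *Napsa* and −2.30 for *Aqp8*. It was −4.54 for *Cyp17a1*, −4.28 for *Defb1*, −3.43 for *Csf1*, −6.38 for *Havcr1*, −5.20 for *Tshr*, −4.31 for *Akr1c18*, −3.27 for *Gpx3*, −3.60 for *Prl6a1* and −3.19 for *Abcb1b*. For *Cd36* it was −4.63, and there the genotype difference was 4.25 with vehicle and −0.38 with A83-01. For *Fabp4* it was −3.65, for *Selenop* −3.39 and for *Ncald* −1.49. The interaction was positive for *Fn1* (9.61), *Kcng1* (6.46), *Slc6a2* (6.85) and *Chrna1* (4.71), the members of this set that fell with vehicle.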

How the results depend on the processing

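None of the 970 called genes was called in the opposite direction under any of the 18 alternatives, and between 201 and 970 of the calls were kept. Changes of sign were looked up for the named genes alone, and no named gene with a call changed sign. The counts of higher and lower genes moved by more than 1.5 times without the eBayes trend (257 and 195, with 1 A83-01 call) and at an adjusted p of 0.05 (1204 and 1206, with 208 interactions). The replicate number as a block gave 145 and 66 genes and 0 A83-01 calls. With vehicle, deviations from the group means correlated at r = 0.0148 to 0.0822 between samples of the same replicate number. These replicate numbers mostly join different label numbers, and the samples are few, so whether samples were paired was not settled. A83-01 calls numbered 72 with the number series as a covariate and 5 with all 15 samples in 1 fit. Leaving out 1 sample gave 206 to 502 higher and 74 to 490 lower genes, 0 to 4 A83-01 calls and 39 to 77 interactions. Of the 153 named genes with a call, 91 lost it with the block and 70 without the trend. The call was lost in 20 with all 15 samples in 1 fit and in 14 with the number series. With a pseudocount of 0.1 it was lost in 14, at equal totals in 5 and with quantile normalization in 4. *Krt80* and *Itga6* lost theirs under both of these normalizations. Genes without a call changed sign in 16 cases. *Epcam* was at −0.16 with quantile normalization and −0.037 at equal totals, *Foxa2* at 0.026 with quantile normalization and 0.19 with the block, *Muc1* at 0.018 with the block, and the mesothelial gene *Upk3b* at −0.051 at equal totals. Without single samples *Foxa2* ranged from −0.45 to 0.28, *Muc1* from −0.19 to 0.018, *Upk3b* from −0.93 to 0.67 and *Smad3* from −0.18 to 0.068. The cause of these moves was not tested. The deposited values carry no read depth, which leaves the precision of low values unknown.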
